A study of Mus musculus with 12 samples.

Results

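Gene expression was compared between pachytene spermatocytes of mice in which Hdac3 was deleted in germ cells and the same cells of control mice. All 6 pachytene spermatocyte libraries of the series, of 12 in all, entered the comparison, and all 21429 genes of the count table were considered. The 3 knockout (KO) libraries came from Stra8-cre/Hdac3fl/- mice, which carry a floxed and a null Hdac3 allele and a transgene in which the Stra8 promoter drives Cre recombinase in premeiotic male germ cells. The 3 control libraries came from Hdac3fl/+ mice, with a floxed and an intact allele. The genotype field calls these controls wild type without mention of a cre, so, as labelled, the cre and the null allele both went with the KO group. Ages and cell isolation are not described in the sources used here, and the submitters call the libraries biological triplicates. The other 6 libraries, round spermatids of KO and control mice, were used only where stated.

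HDAC3 removes acetyl groups from histones within the NCoR and SMRT corepressor complexes, which nuclear receptors and other transcription factors bring to their target genes. Pachytene spermatocytes are cells in the long mid-prophase of the first meiotic division, in which homologous chromosomes are synapsed and recombine. At this stage the unsynapsed X and Y are gathered in a body of silent chromatin, a process called meiotic sex chromosome inactivation. Pachytene cells also begin to transcribe many genes whose proteins are used only after meiosis, in spermatids and sperm.

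Total gene counts were 12137427 to 17467583 per library, so that 3 counts came to 0.172 to 0.247 CPM. The ribosomal precursor Rn45s took up 0.271% of counts in 1 library, the remaining KO library, and 0.032 to 0.0609% in the other 5. In each group the columns are tied to replicate 1, to replicate 3 and, for the remaining column, to the group alone. Values for single libraries are given in that order. Libraries of the same number deviated together from their group means (correlation 0.462 to 0.582 across genes). Those of different numbers gave -0.334 to -0.177. Deviations from a group mean cancel out within the group, so these negative values follow in part from the positive ones. Levels are CPM, the counts scaled to a fixed library total. The 10 pachytene markers summed to 8076 to 8281 CPM in KO libraries, against 7555 to 8885 CPM in control libraries. None was at 0, so the listed markers of the labelled cell type were present. They were not confined to it, as the same 10 summed to 5264 to 5924 CPM in control round spermatids. Spag6 and Adam3 had higher means there, 249 and 1580 CPM, against 58.8 and 1325 CPM in control pachytene spermatocytes. The rest had lower means there, though Ccna1 hardly differed (193 against 196 CPM). Markers of other cell types were also counted, and which cells this RNA came from was not tested. The 11 round spermatid markers summed to 836, 1094 and 1735 CPM in KO libraries, against 2010, 3088 and 4350 CPM in control libraries, and to 11458 to 23296 CPM in control round spermatids. Sertoli cell markers summed to 692 to 1478 CPM in KO and 407 to 1094 CPM in control libraries, and Leydig cell markers to 318 to 691 CPM in KO and 310 to 693 CPM in control libraries. Peritubular smooth muscle markers summed to 6.33 to 13.7 CPM in KO and 15.4 to 72.0 CPM in control libraries. None of the listed markers of these cells present in the table was at 0 in all 6 libraries.

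**Figure D1:**
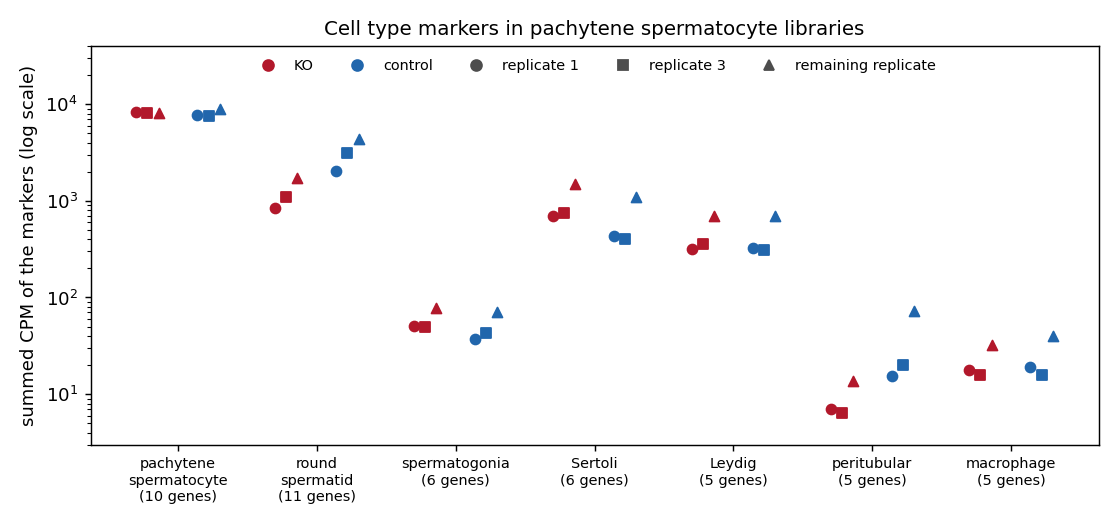
Summed CPM (log axis) of marker genes of 7 cell types in the 3 KO (red, left) and 3 control (blue, right) pachytene spermatocyte libraries, with 1 point per library and 1 symbol per replicate number. Round spermatid markers lay at 836 to 1735 CPM in KO and at 2010 to 4350 CPM in control libraries, and the peritubular sums of KO libraries were also all below those of the controls.

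Hdac3 itself (chr18:37935844-37955016, GRCm38) had 17.4, 17.5 and 26.3 CPM in KO libraries, against 58.9, 51.5 and 88.9 CPM in control libraries. The groups did not overlap. Its log2 fold change was -1.67 (SE 0.22, adjusted p = 0.00558, edgeR), and the KO mean was 30.7% of the control mean. Counts are summed over all exons of a gene, those outside the floxed part included.

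Of 15272 genes with enough counts to be tested, 139 rose in KO pachytene spermatocytes (0.91%) and 687 fell (4.5%), 5.41% in all at an adjusted p under 0.05 (edgeR quasi-likelihood test). The median log2 fold change was 1.2 among the genes that rose and -1.25 among those that fell, and 0.06 over all genes tested. More than 2-fold changes were found for 95 of the genes that rose and 500 of those that fell. At an unadjusted p under 0.05 in the same test, 1279 of the 15272 genes were higher and 1866 lower. Genes that fell took up 1.40, 1.41 and 2.02% of all counts in KO libraries, against 3.03, 3.56 and 3.84% in control libraries. With libraries blocked by number, 3476 genes were called (22.8%), of which 1623 rose (10.6%) and 1853 fell (12.1%), and all 826 genes called without the block were among them. The counts changed with the library left out. Without KO replicate 3, 288 genes were called, and without KO replicate 1, 304. There were 407 without control replicate 3, 579 without control replicate 1 and 1592 without the remaining control library. Genes that rose numbered 82 without the remaining KO library. These fits had no block, so each left 1 library without its partner of the same number. Leaving out both remaining libraries gave 1220 genes.

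Genes for the proteins that pack sperm DNA were lower in part in KO pachytene spermatocytes. Spermatids replace most of their histones, first with transition proteins and then with protamines, which compact the DNA of the sperm head. Of 15 genes in the table listed for these proteins, spermatid linker histones and factors of histone exchange, 15 were tested, 7 fell and none rose, where 4.5% of all genes fell, and their median log2 fold change was -1.01, where all genes had 0.06. Prm1, Prm2 and Tnp2, for 2 protamines and a transition protein, are neighbours on chromosome 16 together with Prm3. Their promoters are shown here because the 3 genes fell together, with those of Smcp, of the sperm mitochondrial capsule, and Spem1, needed for shedding of spermatid cytoplasm, which also fell. The sequences are the 250 bases before the transcription start in RefSeq (GRCm38.p6, all on the minus strand): chr16:10796824-10797073 for Prm1, chr16:10792106-10792355 for Prm2, chr16:10788656-10788905 for Tnp2, chr3:92589074-92589323 for Smcp and chr11:69822166-69822415 for Spem1. Capitals mark AGGTCA on either strand, the core of many nuclear receptor sites. TGACG, the core of the cyclic AMP response element that CREM binds, was also searched on both strands and is in none of the 5 windows. Variant forms of the element were not searched, so this does not show that sites for CREM are absent.
Prm1: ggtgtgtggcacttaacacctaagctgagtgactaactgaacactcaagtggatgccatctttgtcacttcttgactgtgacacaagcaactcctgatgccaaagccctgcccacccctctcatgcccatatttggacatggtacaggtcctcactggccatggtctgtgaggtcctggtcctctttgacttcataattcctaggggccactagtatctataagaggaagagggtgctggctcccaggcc
Prm2: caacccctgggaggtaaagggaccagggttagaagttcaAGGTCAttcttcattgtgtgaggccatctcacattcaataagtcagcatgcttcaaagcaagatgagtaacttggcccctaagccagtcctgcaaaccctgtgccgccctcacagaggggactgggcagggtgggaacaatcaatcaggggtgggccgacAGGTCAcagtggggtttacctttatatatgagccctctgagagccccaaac
Tnp2: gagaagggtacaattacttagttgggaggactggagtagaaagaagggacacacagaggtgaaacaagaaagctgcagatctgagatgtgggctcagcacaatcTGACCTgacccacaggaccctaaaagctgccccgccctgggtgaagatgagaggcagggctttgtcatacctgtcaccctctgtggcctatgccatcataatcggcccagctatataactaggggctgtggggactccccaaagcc
Smcp: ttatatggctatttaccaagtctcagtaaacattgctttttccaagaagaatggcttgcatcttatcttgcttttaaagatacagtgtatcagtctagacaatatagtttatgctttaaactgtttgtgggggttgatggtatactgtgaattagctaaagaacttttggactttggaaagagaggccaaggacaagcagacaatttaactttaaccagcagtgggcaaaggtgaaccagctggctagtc
Spem1: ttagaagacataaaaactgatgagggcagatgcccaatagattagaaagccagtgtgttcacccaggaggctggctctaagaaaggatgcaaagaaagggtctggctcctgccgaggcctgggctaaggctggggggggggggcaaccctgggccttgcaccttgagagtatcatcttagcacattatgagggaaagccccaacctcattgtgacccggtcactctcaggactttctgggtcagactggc
AGGTCA occurs 2 times in the Prm2 window, 1 time in that of Tnp2 and not in the other 3 windows. Of all 32851 RefSeq promoters of this length, 14.0% hold AGGTCA and 17.8% hold TGACG. A promoter was found for 537 of the 687 genes that fell, of which 22.2% hold AGGTCA and 16% hold TGACG, for 119 of the 139 that rose (16 and 24.4%), and for 11284 genes not called (11.4 and 25.7%). Their base composition differed too: the mean GC content was 52.1% for genes that fell, 59.6% for genes that rose and 59.3% for genes not called. These shares describe letters in a window and were not tested.

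Prm2 had 126, 211 and 311 CPM in KO libraries, against 424, 864 and 1177 CPM in control libraries, without overlap (log2 fold change -1.89, SE 0.32, adjusted p = 0.007). Prm1 had 42.1, 108 and 166 CPM in KO libraries, against 143, 412 and 538 CPM in control libraries. Here the highest KO library lay above the lowest control library, and the fall was -1.75 (SE 0.43, adjusted p = 0.0303). Tnp2 overlapped in the same way, with 63.0, 114 and 198 CPM in KO libraries, against 182, 397 and 511 CPM in control libraries (-1.51, SE 0.35, adjusted p = 0.025). The spread within each group followed the replicate numbers. Within a number the log2 ratio of KO to control was -1.77, -1.93 and -1.70 for Prm1, -1.75, -2.03 and -1.92 for Prm2 and -1.53, -1.8 and -1.37 for Tnp2. Tnp1, the other transition protein gene, on chromosome 1, showed this most: it had 5.24, 11.3 and 153 CPM in KO libraries, against 15.9, 36.8 and 454 CPM in control libraries, and log2 ratios of -1.6, -1.71 and -1.57. Its change did not pass without the block (-1.53, SE 1.08, adjusted p = 0.461), passed with it (adjusted p = 1.25e-05) and without the remaining KO library (adjusted p = 0.0489), and was at 1.0 without the remaining control library. Prm3 was at -1.29 and passed only with the block (adjusted p = 0.0881 without it, 0.00027 with it).

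The linker histone gene H1fnt had 33.6, 29.6 and 52.2 CPM in KO libraries, against 93.1, 102 and 143 CPM in control libraries (-1.52, SE 0.21, adjusted p = 0.00558). Hils1, another spermatid linker histone, was at -0.97 (adjusted p = 0.0245), H2afb1, a short testis H2A variant, at -1.63 (adjusted p = 0.0302) and Cdyl, a chromodomain protein with roles in spermatid histone replacement, at -1.01 (adjusted p = 0.0131). Of these 7 genes, Prm2 and H1fnt kept their call without any 1 library. Of the 15 listed genes, 2 were called without KO replicate 1, 3 without KO replicate 3 and 4 without the remaining control library. Prm1 was then at an adjusted p of 0.055, 0.0665 and 0.0800, and Tnp2 at 0.0562, 0.0702 and 0.0671. Both also failed with DESeq2 (0.0985 for Prm1 and 0.0568 for Tnp2) and with scaling by library size alone (0.0802 and 0.0718), under which 3 of the 15 genes were called. The round spermatid marker sums given above moved the same way as these genes, but Prm1, Prm2, Tnp1 and Tnp2 are themselves part of those sums. That likeness was thus partly built in. Of those 11 markers 7 were called lower, of which 3 (Prm1, Prm2 and Tnp2) are on this list. The part of round spermatid RNA in these falls was not tested. In bulk libraries fewer cells of a type and less RNA per cell cannot be told apart.

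**Figure D2:**
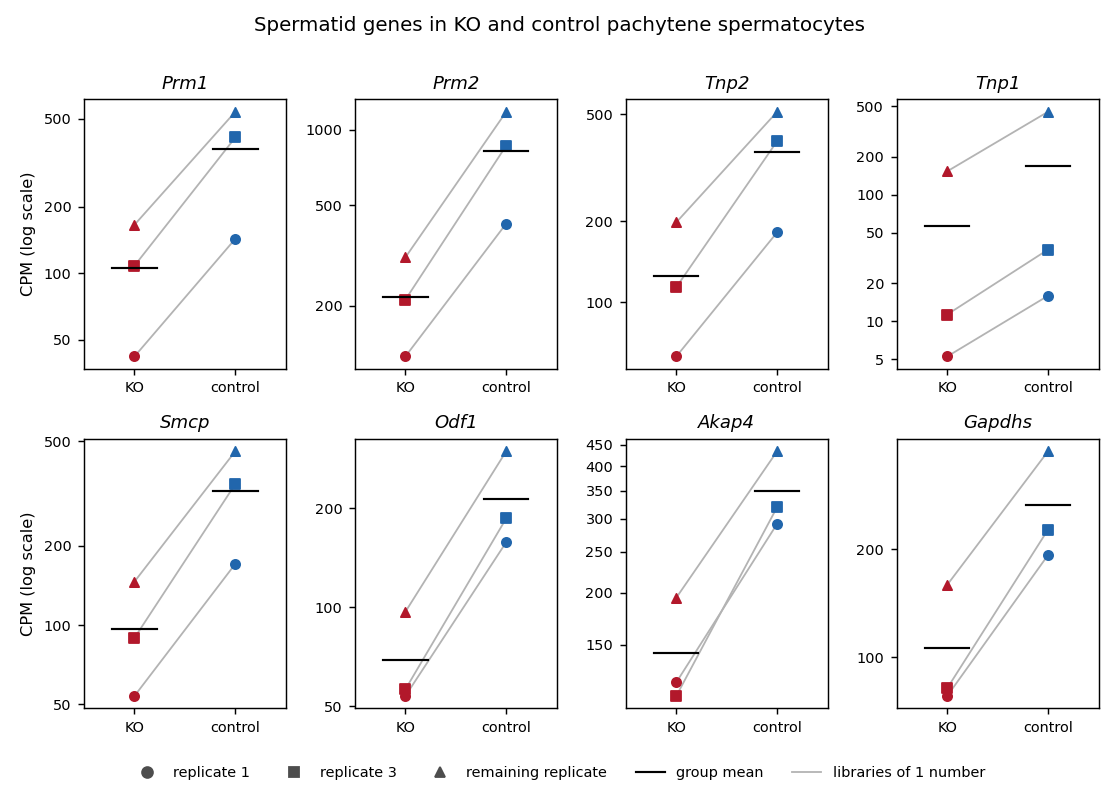
CPM (log axis) of 8 spermatid genes in the 3 KO (red) and 3 control (blue) pachytene spermatocyte libraries, with group means as black bars and grey lines joining libraries of the same replicate number. The lines run nearly parallel while their heights differ, most of all for Tnp1, which had 5.24 to 153 CPM in KO and 15.9 to 454 CPM in control libraries.

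Genes of the acrosome, the enzyme-filled cap of the sperm head, were lower in part. Of 29 acrosome and perinuclear theca genes, all tested, 13 fell and none rose, where 4.5% of all genes fell, with a median of -0.63. Eqtn, an acrosomal membrane protein, had 13.8, 18.4 and 21.3 CPM in KO libraries, against 37.8, 50.7 and 37.4 CPM in control libraries (-1.22, SE 0.22, adjusted p = 0.00855). Spam1 and Hyal5, hyaluronidases of the sperm surface and acrosome, fell by 1.17 and 1.06 on the log2 scale, and Acrv1 by 0.91. The theca and cytoskeletal genes Ccin, Capza3, Actl7a and Actl9 were among the 13, and so were Spaca3, Spaca4, Lyzl4, Lyzl6 and Cst13. Not all acrosome genes fell: Acrbp, a proacrosin binding protein and the most abundant of the list, had 419, 509 and 536 CPM in KO libraries, against 582, 643 and 499 CPM in control libraries, which overlap (-0.21, adjusted p = 0.540). Without KO replicate 1 or KO replicate 3 the count of 13 became 2 in each case, and without control replicate 3 it became 4, and only Eqtn kept its call without any 1 library.

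Of 22 genes for sperm-egg binding and fusion, 12 fell and none rose, where 4.5% of all genes fell, with a median of -0.75. They included Izumo1, the sperm protein that binds its egg receptor in fusion, with 19.6, 19.6 and 23.8 CPM in KO libraries, against 36.4, 39.4 and 33.4 CPM in control libraries (-0.77, SE 0.19, adjusted p = 0.0349). Izumo2, Izumo3, Adam1a, Adam6a, Adam6b, Pdilt, Calr3, Ace, Dcst1 and Pmis2 also fell, by 0.64 for Ace to 1.32 for Calr3. Adam4 had the largest fall of the list, with 3.49, 3.93 and 5.43 CPM in KO libraries, against 13.7, 13.7 and 12.2 CPM in control libraries (-1.61, SE 0.27, adjusted p = 0.00645). Adam6a and Adam6b are near-identical copies, so how counts were shared between them is uncertain. Clgn, a chaperone needed for sperm surface proteins, was the most abundant member and lay higher, at 1819, 1847 and 1942 CPM in KO libraries, against 1352, 1353 and 1389 CPM in control libraries (0.49), which passed only with the block (adjusted p = 0.0887 without it, 0.00134 with it). The count of 12 became 2 without KO replicate 1 or KO replicate 3, 3 without control replicate 3 and 6 without control replicate 1.

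Genes of the sperm tail were read by structure. Of 23 genes of the fibrous sheath, the outer dense fibres and their kinases, 12 fell and none rose, with a median of -0.87. Of 40 axoneme genes 1 fell and none rose, a share near the 4.5% of all genes, with a median of -0.24. With the block 18 of the sheath and fibre genes and 13 of the axoneme genes fell, where 12.1% of all genes did. Akap4, the main fibrous sheath protein, had 122, 113 and 194 CPM in KO libraries, against 292, 320 and 435 CPM in control libraries (-1.25, SE 0.20, adjusted p = 0.00582). Odf1, of the outer dense fibres, had 53.8, 56.4 and 97.0 CPM in KO libraries, against 158, 186 and 298 CPM in control libraries (-1.6). Smcp had 53.7, 89.3 and 146 CPM in KO libraries, against 171, 344 and 459 CPM in control libraries (-1.72), and Oaz3, a testis antizyme, had 44.3, 65.5 and 122 CPM in KO libraries, against 155, 249 and 409 CPM in control libraries (-1.78). None of these 4 genes overlapped between groups. Akap3, Cabyr, Ropn1, Odf3, Sept4 and the testis-specific serine kinases Tssk2, Tssk3 and Tssk6 made up the rest, while Odf2, the most abundant, was at -0.19 (adjusted p = 0.561). The axoneme gene that fell was Tekt5, a tektin (-0.73, adjusted p = 0.0197), and Dnah8, an outer arm dynein heavy chain with 2455 to 4096 CPM in KO and 2457 to 3614 CPM in control libraries, was at 0.11 (adjusted p = 0.838). The 12 calls of the sheath and fibre list became 6 without KO replicate 3, and the axoneme count became 11 without the remaining control library and 0 without any of KO replicates 1 and 3 and control replicates 1 and 3.

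Genes for shaping the head and joining it to the tail were lower in part. Of 23 listed, 9 fell and none rose (median -0.34), where 4.5% of all genes fell. The 9 were Spem1, Hmgb4, Pmfbp1, Spatc1l, Spag4, Sun5, Kif17, Poc1b and Fam46c. Spem1 had the largest fall, with 11.3, 11.8 and 24.9 CPM in KO libraries, against 44.2, 60.1 and 94.9 CPM in control libraries (-2.02, SE 0.29, adjusted p = 0.00558). The count became 4 without KO replicate 1, KO replicate 3 or control replicate 3, and 6 without control replicate 1. Of 15 tested genes for CatSper and other sperm ion channels, 5 fell, namely Catsper1, Catsper4, Kcnu1 and Lrrc52 together with Lrrc8b, and none rose (median -0.46). Those 5 became 0 without KO replicate 3 and 2 without KO replicate 1, control replicate 1 or control replicate 3.

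Among 33 tested genes of sperm glycolysis and energy metabolism, 5 fell and 1 rose, where 4.5 and 0.91% of all genes did, and the median was -0.12. With the block 13 fell and 3 rose, where 12.1 and 10.6% of all genes did. The count of falls became 3 without KO replicate 3 and 10 without the remaining control library. Gapdhs, the sperm form of glyceraldehyde phosphate dehydrogenase, had 78.1, 82.1 and 159 CPM in KO libraries, against 193, 227 and 375 CPM in control libraries (-1.28, SE 0.26, adjusted p = 0.0124), and passed in every leave-one-out fit except that without KO replicate 3 (adjusted p = 0.0551). Aldoart1 and Aldoart2, sperm aldolases, Hk1, a hexokinase with sperm-specific transcripts, and Atp1a4, the sperm sodium pump, also fell. Tpi1, triosephosphate isomerase, was the member that rose, with 302, 325 and 335 CPM in KO libraries, against 178, 165 and 212 CPM in control libraries (0.83, SE 0.16, adjusted p = 0.00943; 0.0571 without control replicate 3). Ldhc, the germ cell lactate dehydrogenase, at 3003 to 3814 CPM in KO and 3688 to 3977 CPM in control libraries, was at -0.10 (adjusted p = 0.793).

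Of 30 post-meiotic transcription regulators, 3 fell and 1 rose, where 4.5 and 0.91% of all genes did, with a median of -0.07. With the block 5 fell and 5 rose, where 12.1 and 10.6% of all genes did. Crem, the main activator of spermatid genes, had 149, 173 and 148 CPM in KO libraries, against 185, 219 and 156 CPM in control libraries, and these ranges overlap (-0.22, adjusted p = 0.546). Fhl5, the CREM coactivator also known as ACT, had 13.0, 14.4 and 22.3 CPM in KO libraries, against 30.9, 39.8 and 43.7 CPM in control libraries (-1.18, SE 0.22, adjusted p = 0.00951). Spz1, a basic helix-loop-helix factor of the testis, was at -1.42 and Sox5, an SRY-related factor, at -0.74. Taf7l, an X-linked germ cell paralog of a general transcription factor, rose to 30.2, 28.0 and 31.8 CPM in KO libraries, against 12.3, 18.8 and 20.4 CPM in control libraries (0.85, SE 0.22, adjusted p = 0.0366), a call that ended without any 1 library other than the remaining control library. The calls of Fhl5 and Spz1 held without any 1 library and that of Sox5 ended without KO or control replicates 1 or 3.

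Without the block, genes of meiotic prophase were called at shares near the 5.41% of all genes, so those counts show nothing about these lists. With the block 10.6% of all genes rose and 12.1% fell. Of 18 tested genes for the synaptonemal complex and chromosome axis, 1 fell and none rose (median 0.11). That gene was Rec8, the meiotic cohesin subunit, with 27.1, 26.2 and 29.8 CPM in KO libraries, against 47.1, 46.7 and 44.4 CPM in control libraries (-0.71, SE 0.18, adjusted p = 0.0334). It ended without KO or control replicates 1 or 3 (adjusted p = 0.106 to 0.135). Of 36 recombination and repair genes none passed (median 0.18, an unadjusted p under 0.05 in 3 higher and 1 lower, and DESeq2 called 1 higher), although with the block 6 rose and 1 fell. Mdc1, a repair adaptor that marks the silent sex body and the most abundant of these, passed only with the block (0.54, adjusted p = 0.126 without it, 0.0113 with it). Of 36 genes for the meiotic divisions, 1 rose, Ccnb3, an X-linked cyclin (1.75, SE 0.46, adjusted p = 0.0445), and with the block 2 rose and 1 fell. The Ccnb3 call ended without any 1 library other than the remaining control library (adjusted p up to 0.169). Of 30 genes of the piRNA pathway, which silences transposons and feeds pachytene small RNAs, 1 rose, Tdrd5, a tudor domain protein (0.72, SE 0.19, adjusted p = 0.0444), and with the block 6 rose. Without the remaining control library 5 rose, where 525 of all 15530 genes tested did, and without KO or control replicates 1 or 3 none of the list rose. Of a list of 13 pachytene genes none passed without the block (edgeR) or with DESeq2, at an unadjusted p under 0.05 there were 2 higher and 1 lower, and 3 rose with the block (median 0.12). Hspa2, a heat shock protein of spermatocytes, had 1728 to 1858 CPM in KO and 1527 to 1943 CPM in control libraries.

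Among 23 tested genes of the retinoic acid pathway, 1 rose and 2 fell, where 0.91 and 4.5% of all genes did. Stra8, which retinoic acid induces at meiotic entry, had 14.3, 18.1 and 18.7 CPM in KO libraries, against 4.01, 5.52 and 8.40 CPM in control libraries (1.56, SE 0.28, adjusted p = 0.00826). It was counted among 6 markers of the earlier leptotene and zygotene stages, which summed to 370, 386 and 338 CPM in KO libraries, against 283, 315 and 371 CPM in control libraries, overlapping. None of the other 5 passed without the block. Prdm9, which marks sites of meiotic breaks, was at 1.11 (adjusted p = 0.0687, 0.00493 with the block) and Dmc1, a meiotic recombinase, at 0.66 (0.263, 0.0373 with the block), while Spo11, which makes the breaks, was at -0.09, Meiob at 0.03 and Hormad1 at 0.35. Mean levels of Stra8, Prdm9 and Dmc1 were 18.3, 10.9 and 18.3 CPM in control round spermatids, against 5.98, 3.74 and 7.07 CPM in control pachytene spermatocytes. Spo11, Meiob and Hormad1 went the other way. Stra8 was also higher in KO round spermatids, with a mean of 60.2 CPM, against 18.3 CPM in control round spermatids. Its log2 fold change there was 1.46 (adjusted p = 0.00561, edgeR). The KO effect on Stra8 in pachytene spermatocytes differed from that in round spermatids by 0.07 (SE 0.37, adjusted p = 0.947, edgeR). The part of earlier cells in the Stra8 rise of KO pachytene spermatocytes was not tested. KO mice carry a cre transgene with the Stra8 promoter, and reads from any Stra8 sequence in it would be counted here. Cyp26b1, which degrades retinoic acid, had 0.641, 1.06 and 2.83 CPM in KO libraries, against 3.49, 3.86 and 11.9 CPM in control libraries (-2.05, SE 0.53, adjusted p = 0.0394), and its call ended without the remaining control library (adjusted p = 0.0968), KO replicate 1 (0.121) or KO replicate 3 (0.12). Bco1, which cleaves carotene to retinal, was at -1.28 (adjusted p = 0.0295, ended without KO or control replicates 1 or 3). With the block 6 rose and 2 fell, where 10.6 and 12.1% of all genes did, and without the remaining control library 3 rose.

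**Figure D3:**
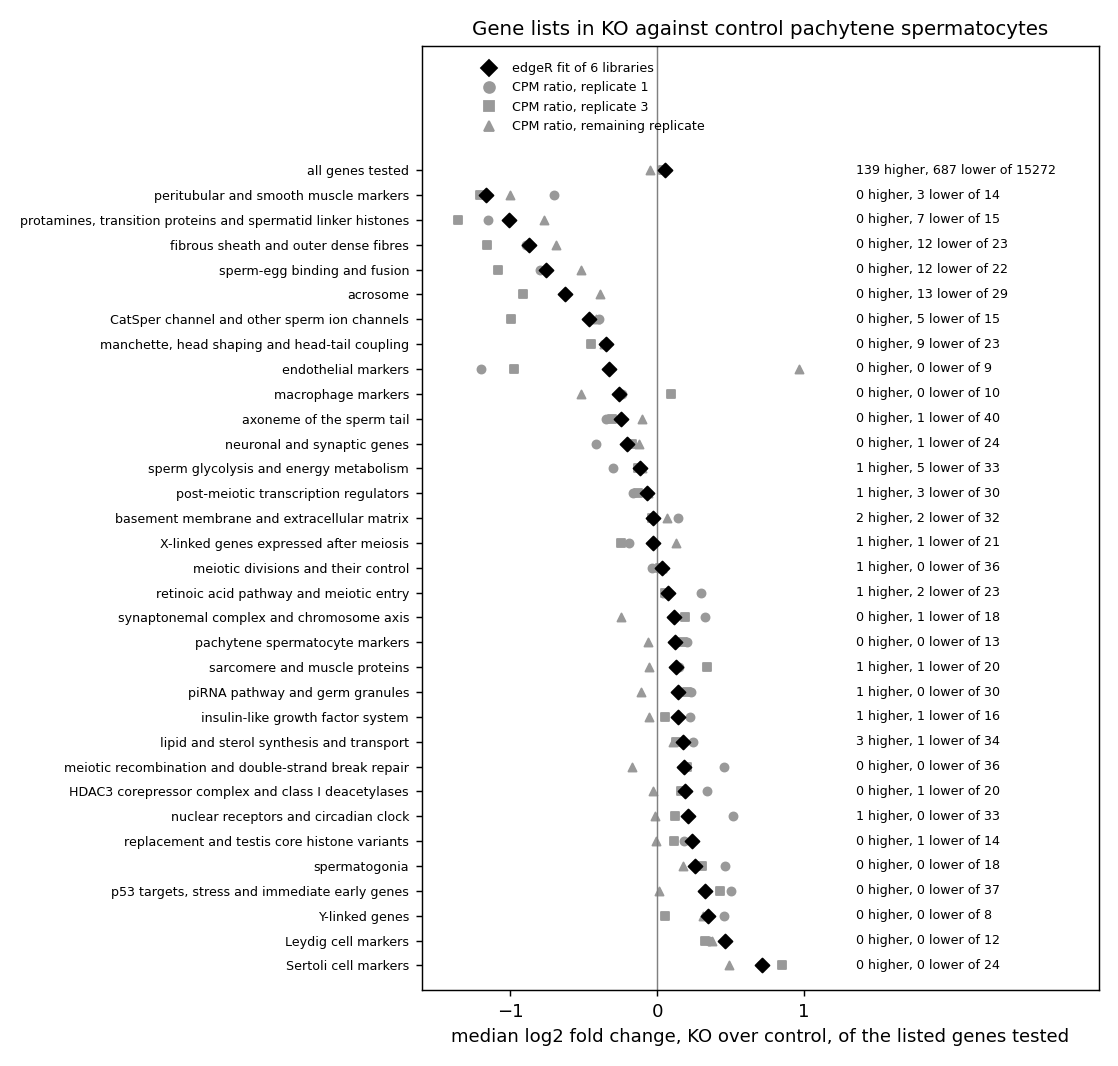
Median log2 fold change of KO over control for the listed genes tested, for each list with at least 8 tested genes, from the fit of 6 libraries (black diamonds) and as CPM ratios within each replicate number (grey symbols), with the number called higher and lower at the right. The lists of sperm nuclear proteins, sheath and fibres, sperm-egg binding and acrosome lay at -1.01 to -0.63, against 0.06 for all genes tested, and endothelial markers ran in opposite directions between replicate numbers.

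The largest rise was in Igfbp3, a secreted carrier of insulin-like growth factors. It had 3.03, 4.81 and 13.3 CPM in KO libraries, against 0.343, 0.475 and 0.742 CPM in control libraries, so the lowest KO library held several times the highest control library (3.77, SE 0.55, adjusted p = 0.00558). Ntn4, a netrin of basement membranes, had 5.12, 4.40 and 9.30 CPM in KO libraries, against 0.859, 0.831 and 2.14 CPM in control libraries (2.36). Rnf208, a ring finger protein, had 7.98, 8.39 and 9 CPM in KO libraries, against 1.26, 2.02 and 2.06 CPM in control libraries (2.29). Ttn, which encodes titin of the muscle sarcomere, had 68.5, 35.8 and 29.1 CPM in KO libraries, against 13.9, 9.32 and 8.57 CPM in control libraries (2.11). Srms, a non-receptor tyrosine kinase, had 14.4, 14.0 and 14.7 CPM in KO libraries, against 5.38, 3.27 and 3.30 CPM in control libraries (1.86), close together in KO but not in control libraries.

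The other genes of the largest 15 rises were Slc5a5, the sodium-iodide symporter (1.8), Serpina3n, a secreted protease inhibitor (1.79), Slc6a8, the creatine transporter (1.75), Klk1b27, a kallikrein (1.62), Stra8 (1.56), Lck, the T cell tyrosine kinase (1.54), Rasal3, a Ras GTPase-activating protein (1.52), Vwa1, a matrix protein (1.47), Nfkb2, a subunit of NF-kappa B (1.37), and Usp26, an X-linked deubiquitinase (1.34). Adjusted p values of the 15 ran to 0.0344, and 11 of them kept their call without any 1 library. Slc5a5 ended without KO replicate 1 (adjusted p = 0.0553), Slc6a8 without the remaining KO library (0.0514), Usp26 without KO or control replicates 1 or 3 (0.0656 to 0.0985) and Nfkb2 without any library other than the remaining control library (up to 0.135). Rasal3, Vwa1 and Klk1b27 had 23.0 to 25.7, 12.8 to 19 and 13.9 to 31.3 CPM in KO libraries, against 6.01 to 9.96, 4.33 to 7.09 and 6.47 to 8.40 CPM in control libraries.

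The promoters of Igfbp3, Srms and Stra8 are shown as those of 3 of the 15 largest rises, beside the spermatid genes printed above. They are chr11:7213924-7214173 and chr2:181213172-181213421, both on the minus strand, and chr6:34920698-34920947, on the plus strand (RefSeq, GRCm38.p6, 250 bases before the start), with AGGTCA on either strand in capitals.
Igfbp3: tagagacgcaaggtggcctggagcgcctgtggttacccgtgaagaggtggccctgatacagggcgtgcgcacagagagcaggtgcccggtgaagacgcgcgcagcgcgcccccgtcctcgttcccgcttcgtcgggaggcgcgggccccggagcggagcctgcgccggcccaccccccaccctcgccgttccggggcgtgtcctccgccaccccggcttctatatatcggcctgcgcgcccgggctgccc
Srms: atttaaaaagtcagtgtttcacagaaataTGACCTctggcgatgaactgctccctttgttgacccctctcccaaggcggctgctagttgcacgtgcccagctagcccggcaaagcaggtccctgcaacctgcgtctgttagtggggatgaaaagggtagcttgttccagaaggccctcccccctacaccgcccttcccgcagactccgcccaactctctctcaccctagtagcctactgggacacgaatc
Stra8: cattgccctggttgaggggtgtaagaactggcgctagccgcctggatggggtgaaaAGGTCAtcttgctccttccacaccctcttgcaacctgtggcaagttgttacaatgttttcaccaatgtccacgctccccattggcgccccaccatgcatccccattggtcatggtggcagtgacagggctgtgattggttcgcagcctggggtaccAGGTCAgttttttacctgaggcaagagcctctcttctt
The Igfbp3 window holds no AGGTCA, that of Srms holds 1 and that of Stra8 holds 2. TGACG is in none of the 3, and variants of it were not searched.

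**Figure D4:**
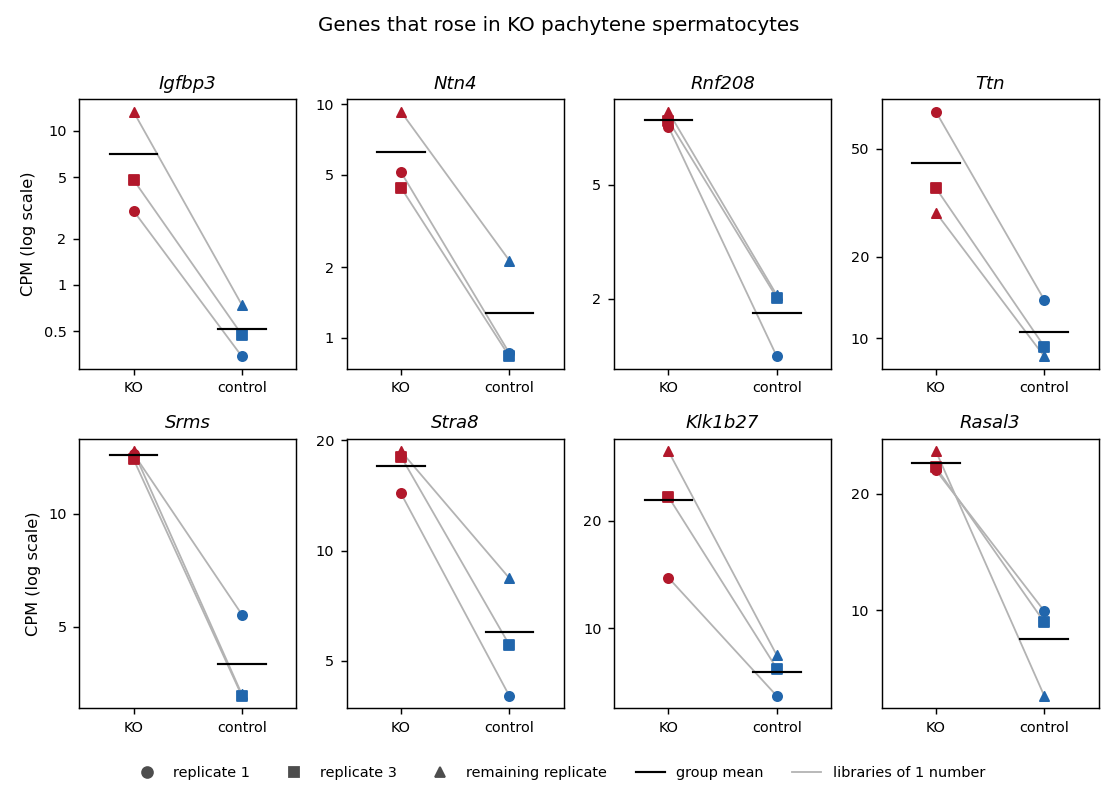
CPM (log axis) of 8 genes that rose, in the 3 KO (red) and 3 control (blue) libraries, with group means as black bars and grey lines joining libraries of the same replicate number. Every KO library lay above every control library for these 8 genes, which the rule for the largest rises required. Igfbp3 was at 3.03 to 13.3 CPM in KO and 0.343 to 0.742 CPM in control libraries.

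Klk1b27 lies in a cluster of near-identical glandular kallikreins (chr7:43942662-44192455, GRCm38), in which 9 genes were tested, 3 rose and 1 fell. Klk1b24 had 27.7, 37.3 and 39.6 CPM in KO libraries, against 11.4, 15.4 and 16.6 CPM in control libraries (1.30, adjusted p = 0.0064), and Klk1b22 was at 1.13 (adjusted p = 0.0419). Klk1b8 had 1.63, 3.40 and 3.50 CPM in KO libraries, against 3.84, 10.2 and 11 CPM in control libraries (-1.5, adjusted p = 0.045). Since reads of such copies can be split or dropped by counting, which member a change belongs to is uncertain, and the calls of Klk1b22 and Klk1b8 ended without most single libraries (adjusted p up to 0.16). Klk1b24, Klk1b22 and Klk1b8 were picked out after their values were seen.

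Of the 15 largest falls, 7 were in genes known only by clone or model names. 1700120K04Rik, annotated as antisense to another gene, had 0.466, 0.821 and 1.64 CPM in KO libraries, against 3.55, 7.30 and 7.33 CPM in control libraries (-2.63), and since the sources used here do not state the strand setting of the counting, its partner's reads cannot be told apart from its own. 1700012A03Rik, annotated as coding, had 2.56, 3.40 and 7.07 CPM in KO libraries, against 14.3, 20.7 and 46.2 CPM in control libraries (-2.60). Tppp2, of the tubulin polymerization promoting family, had 2.85, 4.87 and 8.56 CPM in KO libraries, against 14.1, 22.1 and 46.9 CPM in control libraries (-2.31). Fmn2, a formin that nucleates actin, had 1.16, 1.58 and 2.31 CPM in KO libraries, against 6.98, 9.20 and 6.18 CPM in control libraries (-2.14). Adamts17, a secreted metalloprotease, had 5.01, 3.23 and 4.32 CPM in KO libraries, against 20.9, 16.4 and 15.3 CPM in control libraries (-2.04). None of these overlapped between groups, which the rule for the largest falls required.

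The other 10 of the largest 15 falls were 1700020A23Rik, 1700020G17Rik, 1700025N23Rik, 1700009J07Rik and Gm12128, the smooth muscle myosin gene Myh11 (-2.42), Abcg8, a subunit of a sterol transporter (-2.11), Snai2, a zinc finger repressor (-2.05), Cyp26b1 and Spem1. Of the 15, 12 kept their call without any 1 library. Myh11 ended without KO replicate 3 (adjusted p = 0.0706), Cyp26b1 as given above, and Snai2 without KO replicate 1, KO replicate 3 or control replicate 3 (0.0761, 0.08 and 0.0675). Among all genes, 124 of 1128 tested genes with RIKEN clone names fell (11%) and 4 rose. Of 1023 genes annotated as neither coding nor pseudogenes, mostly long non-coding RNAs, 87 fell (8.5%) and 2 rose, against 587 (4.19%) and 134 of 13993 coding genes. By length of the longest annotated transcript, the share that fell was 8.52% in the shortest quartile and 2.39% in the longest. These shares stand beside 4.5% over all genes and were not tested.

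Abundant genes changed by smaller folds. The 10 most abundant genes that rose were Ankrd54, Mgll, Tdrd5, Strn4, Tpi1, Rassf1, Dennd5b, Rgs12, Golga1 and Fasn, with log2 fold changes of 0.58 for Rassf1 to 0.96 for Dennd5b. Ankrd54, an ankyrin repeat protein, had 728, 747 and 806 CPM in KO libraries, against 511, 453 and 514 CPM in control libraries (0.66, SE 0.16, adjusted p = 0.0269), and Mgll, which hydrolyses monoacylglycerols, was at 0.61 (adjusted p = 0.048). All 10 calls ended without at least 1 of KO replicate 1 and control replicate 3 (adjusted p up to 0.246). The 10 most abundant that fell were Prm2, Hk1, Spata20, Akap4, Tulp2, Tnp2, Spata21, Prm1, Akap3 and Gsg1. Hk1 had 308, 259 and 375 CPM in KO libraries, against 677, 618 and 715 CPM in control libraries (-1.07, SE 0.17, adjusted p = 0.00567). Of these, Prm2, Hk1, Akap4, Spata21 and Gsg1 kept their call without any 1 library.

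X-linked genes were mostly higher in KO pachytene spermatocytes. Of 593 X-linked genes tested, 23 rose (3.88%) and 4 fell (0.675%), against 115 (0.79%) and 680 (4.67%) of 14557 autosomal genes. The median log2 fold change was 0.47 on the X and 0.05 on the autosomes, whose single chromosomes ran from -0.01 to 0.09, and 76.1% of X-linked and 55.3% of autosomal genes were above 0. Every KO library lay above every control library for 122 X-linked genes (20.6%) and below for 27 (4.55%), where all tested genes gave 8.17 and 16%. Within replicate numbers the median log2 CPM ratio of X-linked genes was 0.52, 0.37 and 0.42, against 0.03, 0.03 and -0.06 on the autosomes. The median was much the same at every level of expression, 0.51 for X-linked genes under 2 CPM, 0.50 from 2 to 5 CPM, 0.45 from 5 to 20 CPM and 0.46 from 20 CPM up, where the autosomal medians were -0.02 to 0.12. The whole X took up 0.434, 0.428 and 0.637% of counts in KO libraries, against 0.346, 0.392 and 0.539% in control libraries, a difference in every replicate number but with overlapping groups (exact permutation test, two-sided p = 0.5, where 3 against 3 cannot go below 0.1). Of 8 listed Y-linked genes that were tested none passed by edgeR, while 2 were higher at an unadjusted p under 0.05, 2 with the block and 1 by DESeq2.

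Among X-linked genes, Jade3, a chromatin reader of the JADE family, had 29.1, 25.9 and 34.6 CPM in KO libraries, against 12, 13.1 and 18.5 CPM in control libraries (1.08, SE 0.22, adjusted p = 0.012). Slc6a8 had 4.78, 5.28 and 7.74 CPM in KO libraries, against 0.916, 2.08 and 2.47 CPM in control libraries (1.75). Gm364, a predicted gene, had 19.9, 20.9 and 26.4 CPM in KO libraries, against 8.07, 10.7 and 13.1 CPM in control libraries (1.11, adjusted p = 0.0146). Suv39h1, a histone H3 lysine methyltransferase, was at 1.10 (adjusted p = 0.0483). Atrx, a chromatin remodeller, and Fmr1, an RNA binding protein of translation, chosen after their values were seen, were at 0.89 (adjusted p = 0.0447) and 1.02 (adjusted p = 0.0306). Timp1, a metalloprotease inhibitor, had 2.45, 5.57 and 4.76 CPM in KO libraries, against 0.458, 0.772 and 1.40 CPM in control libraries (2.36, adjusted p = 0.00943). The 4 genes that fell were Akap4, H2afb1, Tspan6 (-0.99) and Hypm (-1.53), and Akap4 and H2afb1 belong to the spermatid lists above. Of 21 tested genes listed as expressed after meiosis, all X-linked but Prps1l1 on chromosome 12, 1 rose (Xlr4a) and 1 fell (Akap4), and their median was -0.03. H2afb1 and Xlr4a have near-identical copies on the X, so the share of counts that is their own is uncertain.

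The number of X-linked calls, and at times their balance, changed with the library left out, in fits without the block. Falls outnumbered rises without the remaining KO library (5 rose and 8 fell) and without control replicate 1 (3 rose and 6 fell). Without KO replicate 1 or control replicate 3, 4 rose and 1 fell, without KO replicate 3, 10 rose and 2 fell, and without the remaining control library 70 rose and 5 fell, and with the block 164 rose (27.7%) and 28 fell. The median stayed above that of the autosomes in each of these fits, at 0.23 without the remaining KO library to 0.64 without the remaining control library, and at 0.44 with scaling by library size alone. In round spermatids, which are other libraries of the same study, 220 of 658 X-linked genes rose (33.4%) and 16 fell (2.43%), where all genes gave 18.7 and 12.4%, and the median was 0.64, against 0.00 on the autosomes. Of the 23 X-linked genes that rose in pachytene spermatocytes, 22 were tested there and 21 rose. In a direct test of the difference in KO effect between the stages, none of 693 X-linked genes passed (edgeR), an unadjusted p under 0.05 took in 9 with a higher and 53 with a lower effect in pachytene spermatocytes, and 31 passed with the block. That test called 3 of 16581 genes (0.0181%). Sertoli cell markers were also higher. None of 24 tested passed without the block and 20 rose with it, where 10.6% of all genes rose. At an unadjusted p under 0.05 (edgeR), 10 were higher, where 1279 of all 15272 genes were. DESeq2 called 1 higher. The median of these markers was 0.71, with 0.71, 0.85 and 0.49 by replicate number. Only 4 X-linked genes tested are themselves on the lists of somatic and spermatogonial markers. The part of these cells in the X-linked difference was not tested.

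**Figure D5:**
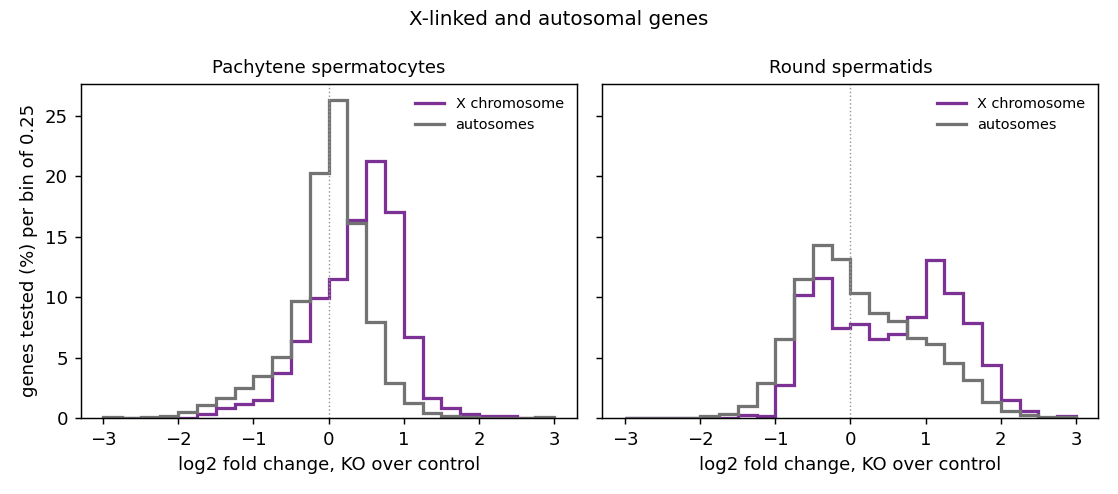
Share of tested genes (%) in bins of 0.25 of the log2 fold change of KO over control for X-linked (purple) and autosomal (grey) genes in pachytene spermatocytes (left) and round spermatids (right), with values beyond 3 in either direction placed in the outermost bins. In pachytene spermatocytes the X-linked values centred at 0.47 and the autosomal ones at 0.05, and in round spermatids the X-linked values formed a low and a high group around a median of 0.64.

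Among 20 tested genes for HDAC3, its corepressor partners and related deacetylase complexes, Hdac3 alone was called without the block, where 5.41% of all genes were. As the deleted gene, its call says nothing about the rest of the list. With the block 5 rose and 2 fell, where 10.6 and 12.1% of all genes did. Hdac1 had 227, 261 and 244 CPM in KO libraries, against 246, 272 and 235 CPM in control libraries (-0.01, adjusted p = 0.978). Of 34 genes for lipid and sterol synthesis and transport, 3 rose and 1 fell, where 0.91 and 4.5% of all genes did. With the block 13 rose and 3 fell, where 10.6 and 12.1% of all genes did. Fasn, the fatty acid synthase, had 184, 143 and 156 CPM in KO libraries, against 83.1, 71.4 and 121 CPM in control libraries (0.86, SE 0.20, adjusted p = 0.0212). Abca1, a cholesterol exporter, was at 0.81 (adjusted p = 0.0297) and Cd36, a fatty acid receptor, at 0.88 (adjusted p = 0.0487). Abcg8 had 1.05, 2.05 and 2.68 CPM in KO libraries, against 8.59, 8.79 and 7.74 CPM in control libraries (-2.11, SE 0.34, adjusted p = 0.00592), and kept its call without any 1 library. The lipid list held no rise without KO replicate 1 or control replicate 3, 1 without KO replicate 3 or control replicate 1, and 9 without the remaining control library.

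Calls in the lists that follow were few, where 0.91% of all genes rose and 4.5% fell, or 10.6 and 12.1% with the block. In the insulin-like growth factor system (16 tested), Igfbp3 rose and Igf2bp2, an RNA binding protein, fell (-1.43, adjusted p = 0.0486), and with the block 3 rose and 3 fell. Among 32 genes of basement membrane and matrix, Ntn4 and Timp1 rose, Lama2, a laminin chain, fell by 1.14 and Nid2, a nidogen, by 0.84, and with the block 10 rose and 4 fell. Among 20 sarcomere genes Ttn rose and Cacna1s, the muscle calcium channel, fell by 1.25, and with the block 2 rose and 2 fell. Of 24 neuronal genes 1 fell, Celf4, an RNA binding protein (-1.08, adjusted p = 0.0351), and with the block 1 rose and 6 fell. Of 37 p53, stress and immediate early genes none passed (median 0.33), though an unadjusted p under 0.05 took in 7 higher and 2 lower, DESeq2 1 higher and 1 lower, and 9 higher and 2 lower with the block. Of 14 histone variants H2afb1 fell, and with the block 2 rose and 2 fell. The calls of Igf2bp2, Nid2, Cacna1s, Lama2, Celf4 and H2afb1 each ended without at least 1 library, with adjusted p values up to 0.19, and those of Igfbp3, Ntn4, Timp1 and Ttn did not.

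Some markers of peritubular muscle fell. Of 14 tested peritubular and smooth muscle genes 3 fell, Myh11, Acta2 and Actg2, where 4.5% of all genes did. With the block 6 fell and 1 rose, where 12.1 and 10.6% of all genes did. Actg2, enteric smooth muscle actin, had 16.5, 21.7 and 33.7 CPM in KO libraries, against 45.7, 58.7 and 64.0 CPM in control libraries (-1.21, SE 0.23, adjusted p = 0.00943). Acta2, vascular smooth muscle actin, had 2.33, 2.99 and 5.58 CPM in KO libraries, against 5.72, 8.31 and 31.4 CPM in control libraries (-1.99, adjusted p = 0.0394), and ended without the remaining control library (0.0918), KO replicate 1 (0.108) or KO replicate 3 (0.105), and with DESeq2 (0.078). Clu, clusterin and the most abundant Sertoli cell marker, had 512, 566 and 1128 CPM in KO libraries, against 310, 306 and 814 CPM in control libraries, higher in each replicate number but overlapping between groups (0.67, adjusted p = 0.267 without the block, 0.000441 with it). Of 12 Leydig, 18 spermatogonial, 10 macrophage and 9 endothelial genes tested none passed in edgeR without the block or in DESeq2. At an unadjusted p under 0.05, 3 Leydig and 5 spermatogonial genes were higher, 1 macrophage gene was lower and 0 endothelial genes passed, and with the block 6 Leydig and 4 spermatogonial genes rose, 1 macrophage gene fell and no endothelial gene passed.

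The most abundant members of the other lists did not pass without the block. Among spermatid lists, Rimbp3, of the manchette, was at -0.66 (adjusted p = 0.08, 0.0029 with the block), Catsperg1, a CatSper subunit, at -0.22 and Kctd19, a meiotic regulator, at -0.11. Sycp2, of the chromosome axis, was at 0.19, Pabpc1, a poly(A) binding protein, at 0.24, and Rdh11, a retinol dehydrogenase, at -0.16. Nr2c2, an orphan receptor, was at 0.42, Elovl2, a fatty acid elongase, at 0.23, Igf2bp3, an RNA binding protein, at -0.40 and Sparc, a matrix protein, at 0.38. Hspa5, the chaperone of the endoplasmic reticulum, was at 0.33 and H3f3b, a replacement histone H3 gene, at 0.24. Of these, Rimbp3, Pabpc1, Igf2bp3, Sparc and Hspa5 passed with the block. Cyp17a1, of Leydig cells, was at -0.01, Dmrtb1, of spermatogonia, at -0.06, Mylk, of smooth muscle, at -0.20, Mrc1, of macrophages, at 0.00, Vwf, of endothelium, at -0.33 and Alas2, the 1 red blood cell gene tested, at -0.52.

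Set beside round spermatids of the same genotypes, most changes had the same sign there. Of the 139 genes that rose in pachytene spermatocytes, 132 were tested in round spermatids, 123 had the same sign and 85 also rose (64.4%), where 18.7% of all genes rose. Of the 687 that fell, 681 were tested, 662 had the same sign and 446 also fell (65.5%), where 12.4% of all genes fell, and 3 rose. The falls of spermatid genes such as Prm2 (log2 fold change -0.30 in round spermatids, adjusted p = 0.613), Odf1 (-0.60, adjusted p = 0.0935) and Spem1 (-0.43, adjusted p = 0.254) did not pass there, whereas Eqtn (-1.21, adjusted p = 0.0042) and Adam4 (-0.94, adjusted p = 0.00629) fell in both. A test of the difference itself passed for 3 genes only, Gclc, Gse1 and Cspg4, and with the replicate block for 1285. On simulated counts that test, without the block, called 68% of 200 genes with a 3-fold difference. The test within pachytene spermatocytes called 98%. The authors' deposited table marked 335 genes as higher and 1535 as lower in KO pachytene spermatocytes, at more than 1.5-fold and an unadjusted p under 0.01. Of the 826 genes called here, the authors' deposited table marked 806 the same way, 20 not at all and none the other way.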

How the data were processed

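Strand-specific total RNA libraries were made from TRIzol-extracted RNA, per the labels' protocols. Reads were processed with HISAT2 2.1.0, HTSeq and DESeq2 on mm10, per the submitters' processing notes; the sources used here give neither the annotation nor the strand setting. The authors deposited raw counts per gene, which were used here, a table of log2 fold changes, which the authors deposited with unadjusted p-values and adjusted p-values, and 12 normalized per-sample columns that were not used. From the counts, KO and control pachytene spermatocytes were compared in edgeR 4.0.16 (R 4.3.3): filterByExpr on the 6 libraries, TMM factors, the quasi-likelihood test and Benjamini-Hochberg adjustment over the 15272 genes kept, with a threshold of 0.05. Standard errors are the log2 fold change divided by the square root of F. CPM is the count over the library total, and means are given with SD where printed as such. Counting limits the precision of low genes: 3 counts are 0.172 to 0.247 CPM per library, and this covers counting error only. On simulated counts for this comparison, 98% of 200 genes raised 3-fold were called, in libraries simulated without an effect of replicate number.

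Replicates 1 and 3 were tied to their columns by the labels, and the remaining column to its group alone. Same-numbered libraries correlated at 0.536, 0.582 and 0.462 in their deviations from the group means (log2 of CPM plus 1), all above 0.1, so the numbers were taken to pair the libraries, and the fit with the replicate block is given where it changes a call. The remaining libraries were paired by elimination. Deviations from a group mean cancel out within the group, so the 3 correlations are not independent. That of the remaining libraries is thus no separate evidence for their pairing. P-values measure the spread between these libraries. Replicates of a group differed beyond sampling noise (chi-square per gene 23.8 to 35.8).

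The genes named were Hdac3; the 15 largest rises and falls among called genes whose higher group averaged 5 CPM or more and whose groups did not overlap; the 10 called genes of highest CPM in each direction; every called member and the most abundant member of each list, of which 1 is not reported here; 9 chosen genes (Stra8, Cyp26b1, Prm1, Prm2, Tnp1, Tnp2, Crem, Rec8 and Taf7l); the 5 largest such rises and falls on the X; and genes whose effect differed from round spermatids. Prm3, Klk1b24, Klk1b22, Klk1b8, Atrx, Fmr1 and Hypm fall outside this rule and were chosen after their values were seen. The members and the 33 lists were chosen with earlier results of these data known. Sertoli, Leydig, peritubular, macrophage, endothelial, red blood cell and spermatogonial lists were among them. Alternatives were other scaling (RLE, library size), DESeq2 1.42.0, other filters, the block, leaving out each library and leaving out both remaining libraries. Gene positions and types came from GENCODE (GRCm38) and, for symbols missing there, from a RefSeq gene table; together they matched 99.3% of genes tested by symbol, and promoters from RefSeq. No set test was run.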

Additional observations from a re-analysis of the deposited data

Results flagged for a closer look

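In 3 genes the KO effect differed between pachytene spermatocytes and round spermatids by an interaction test over all 12 libraries (edgeR quasi-likelihood test, 16581 genes). Gclc, the catalytic subunit of the enzyme that starts glutathione synthesis, had 50.6, 41.9 and 46.7 CPM in KO pachytene spermatocytes, against 76.7, 76.5 and 71.8 CPM in control pachytene spermatocytes. In round spermatids it had 28.9, 36.0 and 38.1 CPM in KO libraries, against 14.7, 12.3 and 16.3 CPM in control libraries. It was lower in the KO at the first stage and higher at the second, without overlap at either, and its log2 fold change in pachytene spermatocytes was lower by a difference of -1.68 (SE 0.22, adjusted p = 0.0154).

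Gse1, a coiled-coil protein of corepressor complexes, had 20.1, 17.5 and 19.4 CPM in KO pachytene spermatocytes, against 22.2, 16.6 and 20.8 CPM in control pachytene spermatocytes, which overlap. In round spermatids it had 22.6, 25.7 and 28.9 CPM in KO libraries, against 5.53, 5.17 and 5.65 CPM in control libraries. The difference was -2.03 (SE 0.25, adjusted p = 0.0154).

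Cspg4, a membrane proteoglycan, had 0.233, 0.0587 and 0.149 CPM in KO pachytene spermatocytes, against 1.66, 1.07 and 1.81 CPM in control pachytene spermatocytes. The KO values are at or near the level of 3 counts or under it, so the fitted difference of -4.34 (SE 0.65, adjusted p = 0.0487) is no bound on its size. In round spermatids its log2 fold change was 1.06 (adjusted p = 0.0567). With RLE scaling the adjusted p of Cspg4 was 0.0538. None of the 3 genes passed without the 4 libraries whose columns are tied to a group alone (adjusted p = 0.79 for each), where the differences were -1.65 for Gclc, -1.88 for Gse1 and -4.26 for Cspg4.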

How the results depend on the processing

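The counts changed with the library left out and with scaling, and no leave-one-out fit had the block. Leaving out 1 library gave 288 to 1592 genes changed, 49 to 525 higher and 234 to 1067 lower (without control replicate 1, 579, 55 and 524; without the remaining KO library, 82 higher). Library size alone gave 72 higher, DESeq2 302 and leaving out both remaining libraries 279. Of the genes called, 16.8% were higher, 24.4% by DESeq2, 33% without the remaining control library and 46.7% with the replicate block. The block on paired libraries gave 3476 genes changed, 1623 higher and 1853 lower. Under leave-one-out the genes lower numbered 2 to 8 of the sperm nuclear protein list, 2 to 13 of the acrosome, 2 to 12 of sperm-egg binding, 6 to 14 of sheath and fibres, 4 to 10 of the manchette and 0 to 6 of the ion channels. With library size alone the nuclear protein list had 3 and sperm-egg binding 7, and without both remaining libraries the nuclear protein list had 4. X-linked genes higher were 6 with library size alone, 44 with DESeq2, 164 with the block, 35 without both remaining libraries and 3 to 70 under leave-one-out (5 without the remaining KO library), and those lower were 1, 12, 28, 8 and 1 to 8, with 12 without a filter on low counts. The X median was 0.23 to 0.64 under leave-one-out, 0.54 without KO replicate 3 and 0.36 without control replicate 1. The difference between stages was called for 35 genes with library size alone, 6 without a filter, 1285 with the block and 0 without the 4 remaining libraries. The log2 fold change of Tnp1 was 1.0 without the remaining control library (adjusted p = 0.564). The causes were not tested.

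Over all alternatives 1518 of 1924 values of single genes kept their direction and side of the threshold. Of the 139 named genes called, 3 were not called by DESeq2 (Prm1, Tnp2 and Acta2) and 41 with library size alone. Simulated 3-fold changes were recovered at 98% within pachytene spermatocytes and at 68% in the test of the difference between stages. The genes changed in the simulation averaged 5 CPM or more and were all raised, and smaller changes were not simulated. Effects of replicate number and differences in profile between the stages were not simulated either.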
